A study of Homo sapiens with 2 samples.

Results

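The genes described here are 46 genes of mitosis, encoding its kinases, kinesin motors, checkpoint proteins, centromere and kinetochore proteins and chromosome-condensing factors, as measured by RNA sequencing in A549 cells. They were chosen by name and found by Entrez ID among the 16399 genes listed in each library, and all 46 were found. A549 is an established human lung adenocarcinoma line. The study looked for genes downstream of plakophilin 2 (PKP2), which links desmosomal cadherins to the intermediate filament anchor inside the cell. The PKP2 group was 1 library of A549 cells given SFB-tagged PKP2 for overexpression, and the vector group was 1 library of A549 cells labelled only as vector. Both cultures were at passage 5 in the same medium and serum, and whether the cells were a clone or a pool is not given in the labels. With 1 library per group no difference has a replicate check and none was given a p-value, so the values compare 2 libraries rather than 2 conditions.

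The estimated counts summed to 16808842 in the PKP2 library and 16996976 in the vector library. PKP2 itself stood at 268 counts per 1000000 (CPM) in the PKP2 library and 27.3 CPM in the vector library, in the direction of the labels. Of the epithelial markers KRT7, KRT8, KRT18, KRT19, EPCAM and CDH1, all 6 were expressed at 1 CPM or more, summing to 11936 CPM in the PKP2 library and 11649 CPM in the vector library, though EPCAM was at only 1.37 and 1.47 CPM. The fibroblast markers (5 of 7 listed) summed to 11.8 CPM in PKP2 and 9.59 CPM in vector. The leukocyte markers (2 of 6 listed, mainly CD68) summed to 85.8 and 81.8 CPM and the endothelial markers (3 of 4 listed) to 0.892 and 0.235 CPM in the same order. Their part in the results was not tested.

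A cell enters mitosis when CDK1, bound to a B-type cyclin, is switched on by CDC25 phosphatases. Polo and Aurora kinases then build the spindle, and checkpoint proteins at unattached kinetochores hold back the anaphase-promoting complex (APC/C) until every chromosome is attached. The APC/C with CDC20 destroys securin and cyclin B, separase cuts cohesin, and the central spindle directs cytokinesis. Transcripts of these genes accumulate in G2 phase and mitosis, driven by the MuvB complex with B-MYB and by FOXM1, and as a group they are read as a sign of proliferation in tumours, lung adenocarcinoma among them. In RNA from a whole culture, fewer cells in these phases and less of a transcript per cell cannot be told apart.

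MuvB binds a promoter element called CHR, and the factor NF-Y binds the CCAAT box. The promoters of 39 of the 46 genes were in the RefSeq promoter table (GRCh38.p14), which gives 250 bases before to 50 bases after each annotated start. The letters TTTGAA of the CHR, on either strand, were in at least 1 promoter of 30 of these 39 genes, a share of 76.9% against 13.7% of the 10441 expressed genes in the table. CCAAT, on either strand, was in 30 of 39 genes, 76.9% against 43.2%, and both were in 23 of 39, 59.0% against 5.68%. The 6 stretches below run over the 130 bases before the start. They were chosen after the values were seen and are shown for MKI67 and ASPM, both among the lowest of the set in the PKP2 library, for PTTG1 and CDC20, both higher there, and for CCNB2 and PLK1, whose interval included no difference. Capitals mark TTTGAA and CCAAT or their reverse complements, TTCAAA and ATTGG.
MKI67: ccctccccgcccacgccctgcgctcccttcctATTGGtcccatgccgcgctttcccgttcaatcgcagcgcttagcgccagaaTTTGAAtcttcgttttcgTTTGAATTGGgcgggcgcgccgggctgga
ASPM: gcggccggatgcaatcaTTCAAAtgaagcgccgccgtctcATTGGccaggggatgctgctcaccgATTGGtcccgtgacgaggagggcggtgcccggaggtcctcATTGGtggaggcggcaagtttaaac
PTTG1: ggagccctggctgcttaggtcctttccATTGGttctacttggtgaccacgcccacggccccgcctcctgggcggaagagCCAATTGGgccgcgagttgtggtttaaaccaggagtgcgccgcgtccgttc
CDC20: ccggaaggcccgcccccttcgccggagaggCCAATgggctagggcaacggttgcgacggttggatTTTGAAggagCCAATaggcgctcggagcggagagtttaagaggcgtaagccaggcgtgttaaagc
CCNB2: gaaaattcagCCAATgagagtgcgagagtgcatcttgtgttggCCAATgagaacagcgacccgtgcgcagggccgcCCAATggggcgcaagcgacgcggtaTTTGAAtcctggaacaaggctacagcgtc
PLK1: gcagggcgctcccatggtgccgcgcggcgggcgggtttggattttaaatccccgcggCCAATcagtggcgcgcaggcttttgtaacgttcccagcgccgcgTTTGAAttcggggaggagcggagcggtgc
These lie at chr10:128126424-128126553 (minus strand), chr1:197146670-197146799 (minus), chr5:160421725-160421854 (plus), chr1:43358851-43358980 (plus), chr15:59105016-59105145 (plus) and chr16:23678759-23678888 (plus). In MKI67, CCNB2 and PLK1 a TTTGAA began 29 bases before the start, in MKI67 overlapping an ATTGG by 1 base. In CDC20 it began 65 bases before the start. Positions count from the RefSeq start, and for MKI67 and CDC20 the bases after it were not found in a GENCODE transcript. The PTTG1 stretch, from the first by position of 2 annotated starts, held 2 overlapping CCAAT matches and a further match but no TTTGAA, which says only that these letters were not in this window. Genes with and without the match were found on both sides of no difference. The 30 genes with TTTGAA ranged over -0.55 to 0.36 on the log2 scale defined below, with a median of -0.11. The 9 without it ranged over -0.17 to 0.31, with a median of 0.06. With the transcript length and GC trend described below removed, these medians were -0.06 and 0.03. The comparison was not matched for transcript length and was not tested.

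Scaled by the library total, most of the mitotic genes were slightly lower in the PKP2 library. With a length and GC trend removed, as described below, the side depended on the length used. With transcript length the genes' median was -0.05 on the log2 scale, with 14 intervals below 1 and 4 above (30.4% and 8.70%). Among all expressed genes these shares were 15.2% and 11.4%. With coding length, a trend added after the data were seen, the median was 0.02. Then 9 intervals were below 1 and 12 above (19.6% and 26.1%), against 14.6% and 11.2% of expressed genes. Differences are given as log2(CPM + 1), PKP2 minus vector, and each ratio is CPM in PKP2 over CPM in vector with an exact 95% interval for counting error alone. All 46 genes passed the filter of 1 CPM, and their levels ran from 11.1 CPM for NDC80 to 783 CPM for TOP2A, both in the vector library. Together they took 0.679% of the PKP2 counts and 0.733% of the vector counts, a ratio of 0.926 (0.919 to 0.934). Their median difference was -0.08, against -0.0016 for the 12820 expressed genes. Of the 46, 33 were lower, against 6448 of the 12820. The lowest was the cytokinesis gene ECT2 at -0.55 and the highest the kinetochore gene NDC80 at 0.36, so none reached a difference of 1.5-fold.

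In 21 of the 46 genes, 45.7%, the whole interval lay below 1, against 19.8% of all expressed genes and 24.4% of the 9664 whose 2 libraries averaged at least 10 CPM, a level that all 46 passed. In 7 genes, 15.2%, it lay above 1, against 16.3% and 19.3%, and in 18 it included 1. The interval narrows with depth, and the members were deeper than the rest, with a median of 115 CPM against 29.7 CPM. By size, which depends less on depth, 6 genes, 13.0%, were at least 1.2-fold lower, against 11% of all expressed genes and 9.94% of the deeper ones. A further 2 genes, 4.35%, were at least 1.2-fold higher, against 8.7% and 5.41%. Both shares were near the background of the deeper genes.

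**Figure D1:**
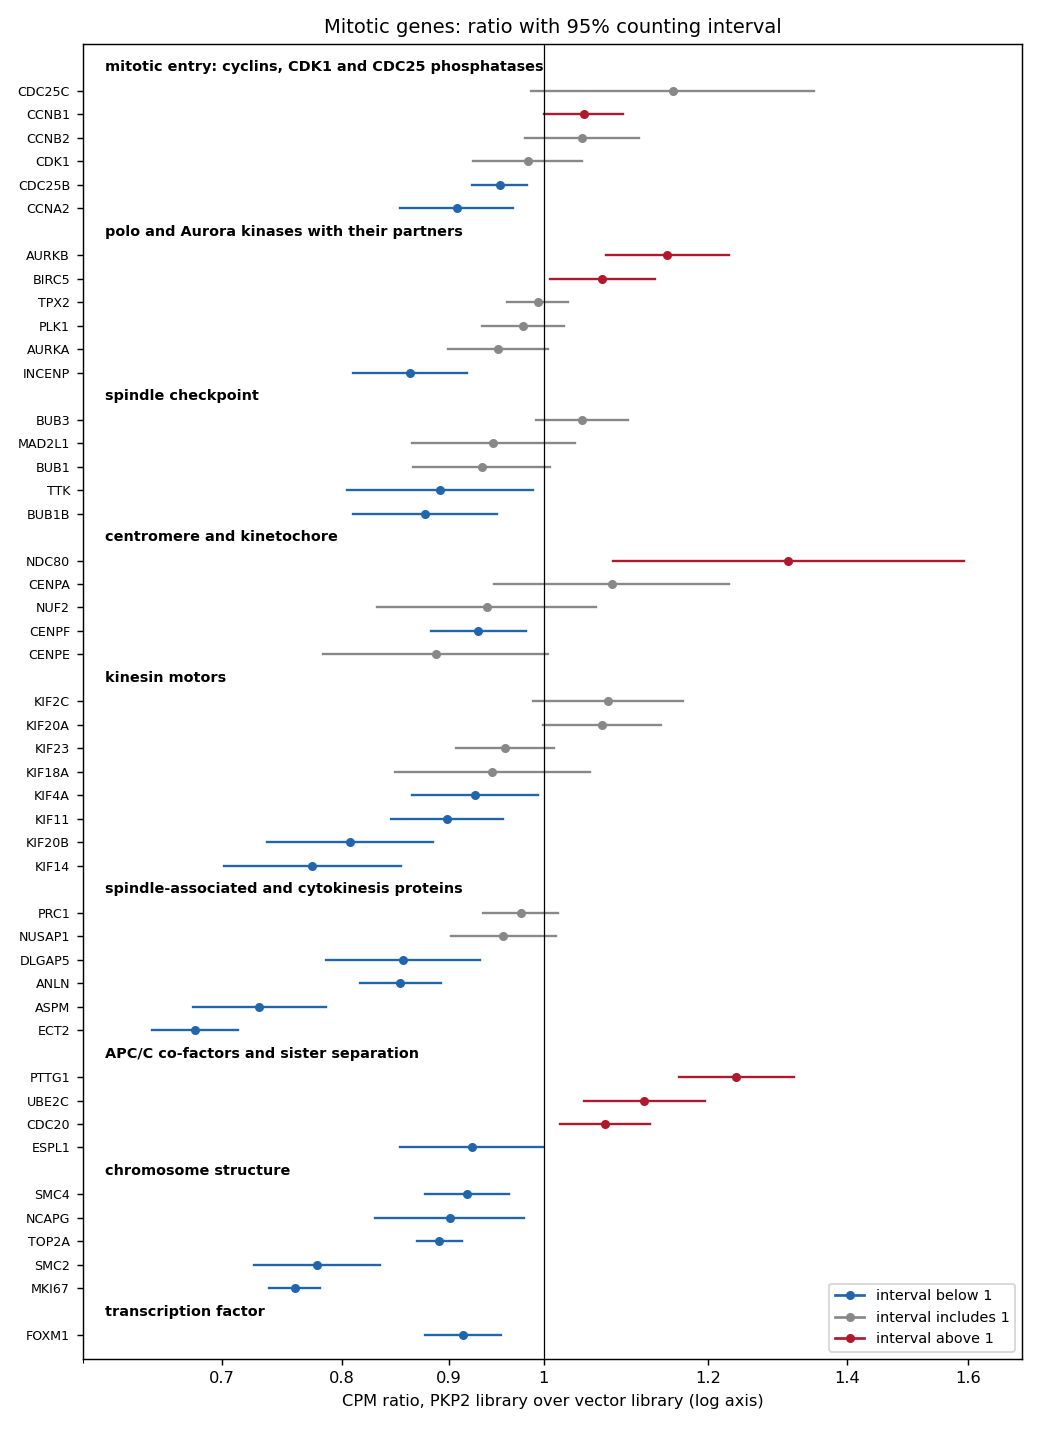
Ratio of CPM in the PKP2 library over CPM in the vector library (log axis) for the 46 mitotic genes by role, with 1 library per group; points are ratios and lines the exact 95% counting intervals. All 5 chromosome structure genes lie below 1, and PTTG1, UBE2C and CDC20 lie above it.

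Within the set the difference followed transcript length closely, and coding length about as closely. Across the 46 genes, which share both libraries and are not replicates, Spearman's rho between the difference and the length of the longest transcript was -0.73 and Pearson's r on log2 length was -0.71, against -0.46 and -0.42 over 12671 expressed genes. With coding length rho was -0.75, against -0.39 over the expressed genes. With GC content of the transcript rho was 0.51, against 0.37 over the expressed genes, and with mean level it was -0.03. Of the 17 genes under 3000 nucleotides, 7 (41.2%) had an interval above 1 and 2 (11.8%) below, against 29.4% and 4.61% of the 4666 expressed genes of that length. The median was 0.09 in both. Of the 17 genes from 3000 to 5000 nucleotides, 10 (58.8%) had an interval below 1 and 0 above, against 17.9% and 12.04% of 4121 expressed genes. Their median was -0.11, against -0.02. Of the 12 genes over 5000 nucleotides, 9 (75%) had an interval below 1 and 0 above, against 40.5% and 5.48% of 3884 expressed genes, and their median was -0.17, against -0.12. The members are deeper than other genes, which narrows their intervals.

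**Figure D2:**
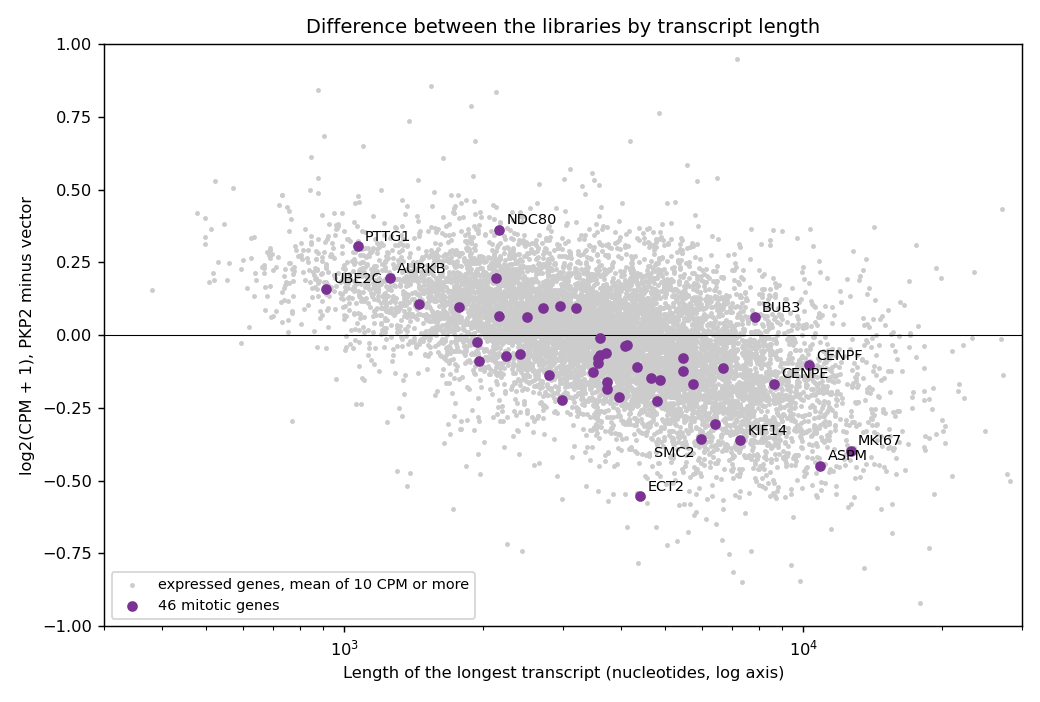
Difference in log2(CPM + 1), PKP2 minus vector, against the length of the longest transcript in nucleotides (log axis), for the 46 mitotic genes (purple) and expressed genes averaging at least 10 CPM (grey). PTTG1, UBE2C and AURKB sit at the short, higher end and ASPM, MKI67 and KIF14 at the long, lower end, while ECT2 and NDC80 lie apart from genes of their length.

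A trend of the difference on transcript length and GC content, estimated over 12671 expressed genes, was therefore removed as an alternative. The members' median was then -0.05, against -0.01 for all expressed genes. The interval lay below 1 in 14 genes (30.4%, against 15.2% of all and 18.3% of the deeper genes) and above 1 in 4 (8.70%, against 11.4% and 13.1%). At least 1.2-fold lower were 2 genes, ECT2 and INCENP, against 6.56% of all and 4.1% of the deeper genes, and 1 gene, NDC80, was at least 1.2-fold higher, against 6.57% and 3.68%. In 37 of the 46 genes the difference became smaller in size, and 7 changed sign. No share of all expressed genes is given for either count. The sign of the set's median depended on which length was used. The members have long coding sequences for their transcripts, with a median of 2470.5 coding nucleotides against 1434 over the expressed genes, while the transcript medians were 3664 and 3725. With coding length in place of transcript length, the members' median was 0.02, 9 genes (19.6%) were below 1, against 14.6% of expressed genes, and 12 (26.1%) above, against 11.2%. The 9 were CCNA2, CDC25B, PLK1, AURKA, INCENP, ECT2, SMC2, MKI67 and FOXM1. The 12 were CCNB1, TPX2, AURKB, BUB3, NDC80, CENPE, CENPF, KIF2C, KIF20A, PTTG1, TOP2A and SMC4. Whether transcript length itself moves the difference was not tested.

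**Figure D3:**
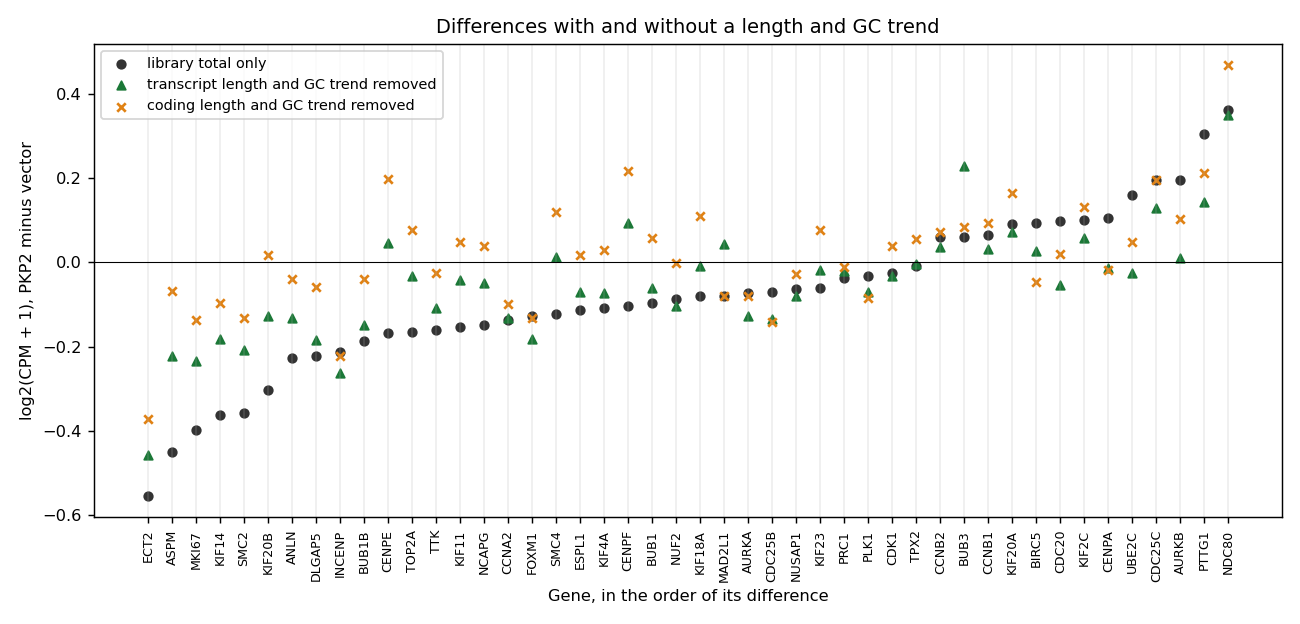
Difference in log2(CPM + 1), PKP2 minus vector, for each of the 46 genes in the order of its value with scaling by the library total (circles), with the transcript length and GC trend removed (triangles) and with the coding length and GC trend removed (crosses). ECT2 stays lowest and NDC80 highest in all 3, whereas many genes between them cross 0.

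Genes of mitotic entry were close to even. CCNB1, the main partner of CDK1 at entry, stood at 245.6 CPM in the PKP2 library and 234.9 CPM in the vector library, a ratio of 1.05 with an interval just above 1 (1.0006 to 1.09). CCNB2, the other B-type cyclin, had a ratio of 1.04 (0.979 to 1.11) and the kinase CDK1 of 0.983 (0.925 to 1.04), and both intervals included 1. CCNA2, the A-type cyclin of S and G2 phase, was lower at 112 against 123 CPM, a ratio of 0.908 (0.853 to 0.967), with fractional and therefore uncertain counts. Its interval did not overlap that of CCNB1, also with the transcript length and GC trend removed, when the differences were -0.13 and 0.03. Among the phosphatases that activate CDK1, CDC25B was at 479 against 503 CPM, a ratio of 0.953 (0.924 to 0.982). CDC25C had a fractional count and a ratio of 1.15 (0.986 to 1.35). The 6 genes together had a summed ratio of 0.983 (0.963 to 1.00).

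The kinases that build the spindle differed little, whereas members of the chromosomal passenger complex lay apart from each other. PLK1, the polo kinase, stood at 219.6 CPM in the PKP2 library and 224.7 CPM in the vector library (ratio 0.977, 0.934 to 1.02). AURKA, the Aurora kinase of the spindle poles, stood at 147.4 and 155.1 CPM (0.951, 0.899 to 1.005), and its activator TPX2 at 393.0 and 395.6 CPM (0.993, 0.960 to 1.03). All 3 intervals included 1, but with the transcript length and GC trend removed PLK1 and AURKA lay at -0.07 and -0.13 with intervals below 1. In the passenger complex, the kinase AURKB was higher at 106.4 against 92.8 CPM (1.15, 1.07 to 1.23), and so was survivin, BIRC5, at 140.5 against 131.6 CPM (1.07, 1.01 to 1.13). INCENP, the scaffold that activates AURKB, was lower at 107.4 against 124.6 CPM (0.862, 0.809 to 0.919), and its interval overlapped neither. AURKB has a transcript of 1254 nucleotides and INCENP of 3964. Once the transcript length and GC trend was removed AURKB lay at 0.01 and BIRC5 at 0.03 on the log2 scale, but INCENP at -0.26, still apart from both. With the coding length and GC trend removed they were 0.10, -0.05 and -0.22.

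The spindle checkpoint genes lay slightly on the lower side. BUB1B, which encodes the checkpoint protein BUBR1, stood at 68.1 CPM in the PKP2 library and 77.6 CPM in the vector library (0.877, 0.810 to 0.95003). TTK, the kinase that starts checkpoint signalling, stood at 41.3 and 46.3 CPM (0.892, 0.804 to 0.989). With the transcript length and GC trend removed BUB1B lay at -0.15, with an interval still below 1, and TTK at -0.11, with an interval that included 1, and with the coding length and GC trend removed they lay at -0.04 and -0.03 and both intervals included 1. The kinase BUB1 (0.934, 0.865 to 1.01) and MAD2L1, the inhibitor of CDC20 (0.946, 0.864 to 1.04), had intervals that included 1. BUB3, which docks BUB1 and BUBR1 at kinetochores, had a ratio of 1.04 (0.991 to 1.098). BUB3 shows how much the length used can matter, since its longest transcript has 7828 nucleotides but its coding sequence 984. Its difference was 0.06 by library total, 0.23 with the transcript length and GC trend removed and 0.08 with the coding length and GC trend removed.

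NDC80 and NUF2, partners in the kinetochore complex that grips microtubules, differed from each other. NDC80 (chromosome 18, 2571511 to 2616635, plus strand, GRCh38) had 245 counts in the PKP2 library and 189 in the vector library, or 14.6 against 11.1 CPM, a ratio of 1.31 (1.08 to 1.59). NUF2 had 520 and 560 counts, or 30.9 against 32.9 CPM, a ratio of 0.939 (0.832 to 1.06). Their transcripts are of like length, 2172 and 1969 nucleotides, and the intervals did not overlap with or without the trend, NDC80 lying at 0.35 and NUF2 at -0.10 with it removed. NDC80 was the least abundant member by CPM, so its interval was the widest of the set on the ratio scale. CENPA, the histone H3 variant that marks centromeres, had a ratio of 1.08 (0.946 to 1.23), and CENPE, the kinetochore kinesin, of 0.887 (0.783 to 1.005). CENPF, a large kinetochore protein with a transcript of 10307 nucleotides, was at 161 against 173 CPM (0.930, 0.882 to 0.9803), but its difference of -0.10 was 0.09 with the transcript length and GC trend removed and 0.22 with the coding one.

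Of the 8 genes grouped as kinesin motors, 4 had an interval below 1 and 0 above. Among the expressed genes averaging at least 10 CPM the shares were 24.4% and 19.3%. Among all expressed genes they were 4.61% and 29.4% under 3000 nucleotides, 17.9% and 12.04% from 3000 to 5000 and 40.5% and 5.48% over 5000. The 8 genes include transcripts in each of these ranges. KIF14, a motor of the central spindle, stood at 42.9 CPM in the PKP2 library and 55.4 CPM in the vector library (0.774, 0.701 to 0.854), and KIF20B, a kinesin of cytokinesis, at 50.03 and 62.01 CPM (0.807, 0.736 to 0.884). KIF11, the bipolar motor Eg5 that pushes spindle poles apart, stood at 114.5 and 127.4 CPM (0.899, 0.845 to 0.956). The chromokinesin KIF4A stood at 91.8 and 99.1 CPM (0.927, 0.864 to 0.993). These 4 have the longest transcripts of the 8, from 4348 to 7274 nucleotides. CENPE, a kinesin grouped above with the centromere genes, has a longer one, of 8612 nucleotides, and its interval included 1. KIF23, the motor of the centralspindlin complex (0.958, 0.908 to 1.01), and KIF18A, which dampens chromosome oscillations (0.945, 0.848 to 1.05), included 1. So did KIF20A, which carries the passenger complex to the midzone (1.07, 0.999 to 1.14), and the microtubule depolymeriser KIF2C, known as MCAK (1.07, 0.988 to 1.17). After removal of the transcript length and GC trend KIF14 lay at -0.18 and KIF20B at -0.13, and the interval of KIF14 alone of the 8 stayed below 1. With the coding length and GC trend removed KIF14 lay at -0.10, KIF20B at 0.02, KIF11 at 0.05 and KIF4A at 0.03. All 4 of these intervals then included 1, as did those of KIF23 and KIF18A. KIF2C at 0.13 and KIF20A at 0.17 had intervals above 1. Among expressed genes the shares with this trend removed were 14.6% below and 11.2% above.

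By library total, the lowest members of the set, ECT2 and then ASPM, were among the spindle-associated and cytokinesis genes. ECT2, the exchange factor that activates RhoA at the division plane (chromosome 3, 172750682 to 172821474, plus strand), had 2892 counts in the PKP2 library and 4302.16 in the vector library, or 172 against 253 CPM. Its ratio was 0.680 (0.648 to 0.713), and its vector count was fractional and is uncertain. With 4406 nucleotides its transcript is not among the longest. Its difference of -0.55 was lower than those of nearly all expressed genes, at percentile 1.01, and with the transcript length and GC trend removed it was -0.46, at percentile 1.37. ASPM, a spindle pole protein (chromosome 1, 197084128 to 197146694, minus strand), stood at 73.7 against 101 CPM (0.730, 0.678 to 0.785), and ANLN, the anillin scaffold of the contractile ring, at 213 against 249 CPM (0.853, 0.816 to 0.892). DLGAP5, a microtubule-binding protein also called HURP, was at 59.5 against 69.5 CPM (0.855, 0.786 to 0.931). The microtubule bundlers PRC1 (0.975, 0.935 to 1.02) and NUSAP1 (0.956, 0.902 to 1.01) included 1. The summed ratio of the 6 genes was 0.845 (0.827 to 0.863). With the transcript length and GC trend removed ASPM lay at -0.22, DLGAP5 at -0.18 and ANLN at -0.13, and with the coding one at -0.07, -0.06 and -0.04. These 3 intervals then included 1, while ECT2 lay at -0.37 with an interval below 1.

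The genes that act with the APC/C at anaphase were the group on the higher side. PTTG1, which encodes securin, the inhibitor of separase (chromosome 5, 160421822 to 160428744, plus strand), stood at 128.9 CPM in the PKP2 library and 104.1 CPM in the vector library (1.24, 1.16 to 1.32). UBE2C, the ubiquitin-conjugating enzyme of the APC/C, stood at 110.0 and 98.4 CPM (1.12, 1.05 to 1.195), and CDC20, its activator, at 191.7 and 179.0 CPM (1.07, 1.02 to 1.13). ESPL1, separase itself, lay the other way at 70.9 against 76.8 CPM, with an upper limit just under 1 (0.924, 0.853 to 0.9999) that passed 1 under median or trimmed mean scaling. The first 3 have transcripts of 1070, 914 and 1777 nucleotides and ESPL1 of 6665. With the transcript length and GC trend removed PTTG1 stayed higher at 0.14, whereas UBE2C and CDC20 lay at -0.03 and -0.05 with intervals that included 1, as they did with the coding trend removed, and the group median was -0.04 instead of 0.13.

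All 5 chromosome structure genes had an interval below 1, against 24.4% of the expressed genes averaging at least 10 CPM. Among all expressed genes over 5000 nucleotides, the range of all but NCAPG, the share was 40.5%. From 3000 to 5000 nucleotides it was 17.9%. TOP2A, the topoisomerase that untangles sister chromatids and the most abundant member by CPM, stood at 698 CPM in the PKP2 library and 783 CPM in the vector library (0.891, 0.869 to 0.913). MKI67, the Ki-67 antigen that coats mitotic chromosomes (chromosome 10, 128096659 to 128126385, minus strand), stood at 493 against 650 CPM (0.759, 0.738 to 0.781). Of the condensin genes, SMC2 was at 85.4 against 110 CPM (0.778, 0.726 to 0.834) and its partner SMC4 at 203 against 221 CPM (0.918, 0.877 to 0.962), and these intervals did not overlap. NCAPG, a condensin I subunit with fractional counts, had a ratio of 0.901 (0.830 to 0.978). The transcripts run from 4661 nucleotides in NCAPG to 12678 in MKI67. Once that trend was removed MKI67 lay at -0.23 and SMC2 at -0.21, with intervals still below 1, while TOP2A was at -0.03, NCAPG at -0.05 and SMC4 at 0.01. With the coding length and GC trend removed MKI67 and SMC2 were at -0.14 and -0.13, with intervals below 1. TOP2A and SMC4 were then at 0.08 and 0.12, with intervals above 1. The interval of NCAPG included 1 and the group median was 0.04.

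FOXM1, the transcription factor of G2 and mitosis genes, stood at 252 CPM in the PKP2 library and 275 CPM in the vector library (0.915, 0.877 to 0.954), with fractional counts. Its difference of -0.13 was -0.18 with the transcript length and GC trend removed and -0.13 with the coding one.

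Per length, the order of the genes was much the same in both libraries. CDC25B led with 133 CPM per 1000 nucleotides in the PKP2 library and 140 in the vector library, then TOP2A with 121 and 136. CENPE was last with 3.31 and 3.73. PTTG1 was the third of the 46 in the PKP2 library and the seventh in the vector library, ECT2 the 20th against the 14th and MKI67 the 21st against the 17th. These levels rest on the longest annotated transcript, which understates a gene whose main transcript is shorter.

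**Figure D4:**
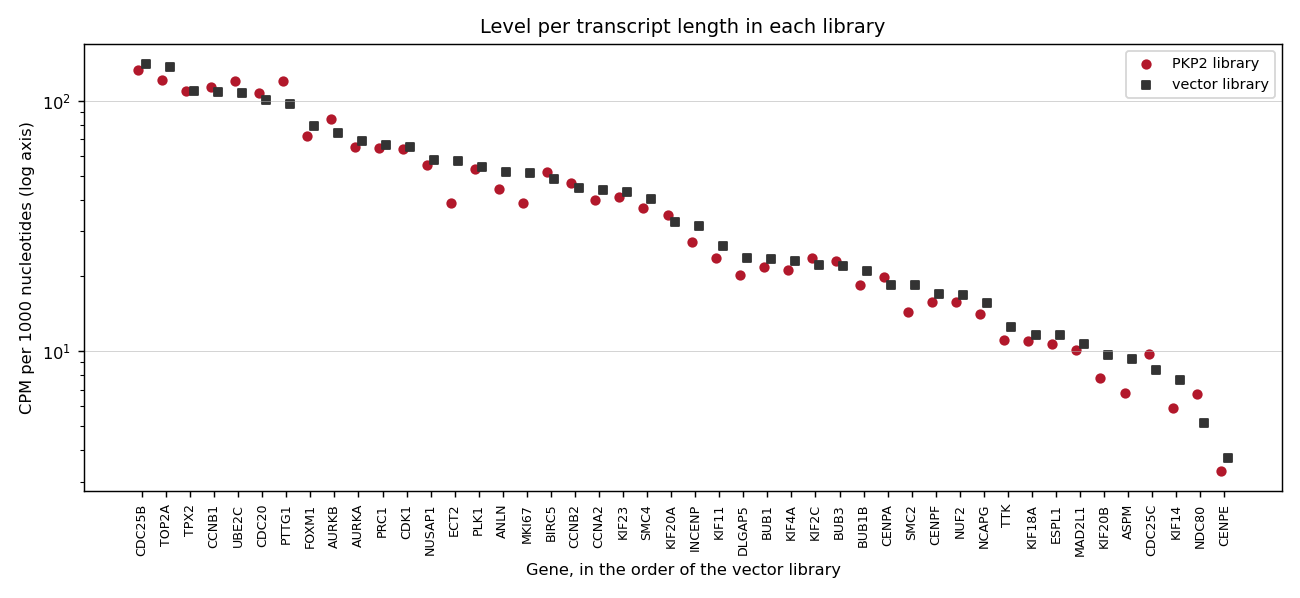
Level of each of the 46 genes as CPM per 1000 nucleotides of its longest transcript (log axis), in the PKP2 library (circles) and the vector library (squares), 1 library each. Levels run from over 120 for CDC25B and TOP2A to under 4 for CENPE in both libraries, and ECT2, ASPM and MKI67 lie lower in the PKP2 library by the widest gaps of the 46.

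In 10 further lists of 122 mitosis and cell cycle genes, 119 were expressed and their median was -0.06. The interval lay below 1 in 38 (31.9%, against 19.8% of all expressed genes) and above 1 in 15 (12.6%, against 16.3%). Once the trend on transcript length and GC content was taken out, the median of these genes was -0.07, with 30 (25.2%, against 15.2%) below 1 and 8 (6.72%, against 11.4%) above, against a median of -0.05 for the 46 genes with the same trend removed. The coding length trend, with which the median of the 46 genes changed sign, was not removed for these lists. Whether their lower side would hold with it was not tested. Cohesin and its regulators lay lowest, with 11 of 12 genes below 1 and 0 above and a median of -0.27. Among all expressed genes the shares were 19.8% and 16.3%, and among those over 5000 nucleotides 40.5% and 5.48%. NIPBL, the cohesin loader (fractional counts), was at 46.3 against 61.4 CPM (0.754, 0.687 to 0.829), and SGO2, a shugoshin that protects cohesin, at 19.2 against 25.4 CPM (0.754, 0.650 to 0.873). The median transcript of this list is 6050 nucleotides long. With the transcript length and GC trend removed the median was -0.13. Then 8 of 12 were below 1, against 15.2% of all expressed genes. The other condensin subunits had 4 of 5 genes below 1, against 19.8% of all expressed genes. Their median was -0.16 with and without the trend. NCAPD3 (fractional counts) was at 0.796 (0.742 to 0.853) and NCAPG2 at 0.834 (0.783 to 0.888).

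From each of the remaining lists the 2 genes that differed most, among those averaging at least 5 CPM, are given here and below. KIF2A, a microtubule-depolymerising kinesin, was at 48.8 against 70.4 CPM (0.694, 0.634 to 0.759), and RACGAP1, the centralspindlin partner of KIF23 that recruits ECT2, at 126 against 151 CPM (0.834, 0.787 to 0.884). With the transcript length and GC trend removed they lay at -0.48 and -0.25. The centrosome gene CEP192 had a ratio of 0.696 (0.618 to 0.783) and SASS6 (fractional counts), of centriole assembly, of 0.780 (0.661 to 0.914). KNL1, the kinetochore scaffold of checkpoint proteins (fractional counts), had a ratio of 0.727 (0.646 to 0.817), and MAD1L1, the partner of MAD2L1, of 1.15 (1.004 to 1.32). CENPW, an inner kinetochore subunit with a transcript of 750 nucleotides, was higher at 17.2 against 12.4 CPM (1.38, 1.16 to 1.66), and CENPQ, of the same assembly, had a ratio of 0.810 (0.651 to 1.01). The medians of the outer kinetochore, inner centromere and APC/C lists were -0.0024, 0.01 and 0.02. In the APC/C list ANAPC1 (fractional counts) was at 0.778 (0.730 to 0.830) and ANAPC11 at 1.22 (1.13 to 1.33).

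Genes that restrain or time the cycle differed in both directions. The repressor E2F7 was at 24.3 against 34.3 CPM (0.709, 0.624 to 0.806) and the retinoblastoma gene RB1 at 53.8 against 70.3 CPM (0.766, 0.702 to 0.836), and with the transcript length and GC trend removed they lay at -0.37 and -0.27. The median of the MuvB, DREAM and E2F list was -0.11, with 5 of 16 genes below 1 and 2 above, against 19.8% and 16.3% of all expressed genes. WEE1, the kinase that restrains CDK1, was at 32.4 against 37.5 CPM (0.864, 0.769 to 0.970), and BORA, the cofactor of Aurora A (fractional counts), had a ratio of 0.890 (0.724 to 1.09). The CDK inhibitor p21, CDKN1A, was at 201 against 179 CPM (1.12, 1.07 to 1.18) and the phosphatase CDKN3 at 64.1 against 57.6 CPM (1.11, 1.02 to 1.22). With the trend removed these lay at 0.04 and 0.03.

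**Figure D5:**
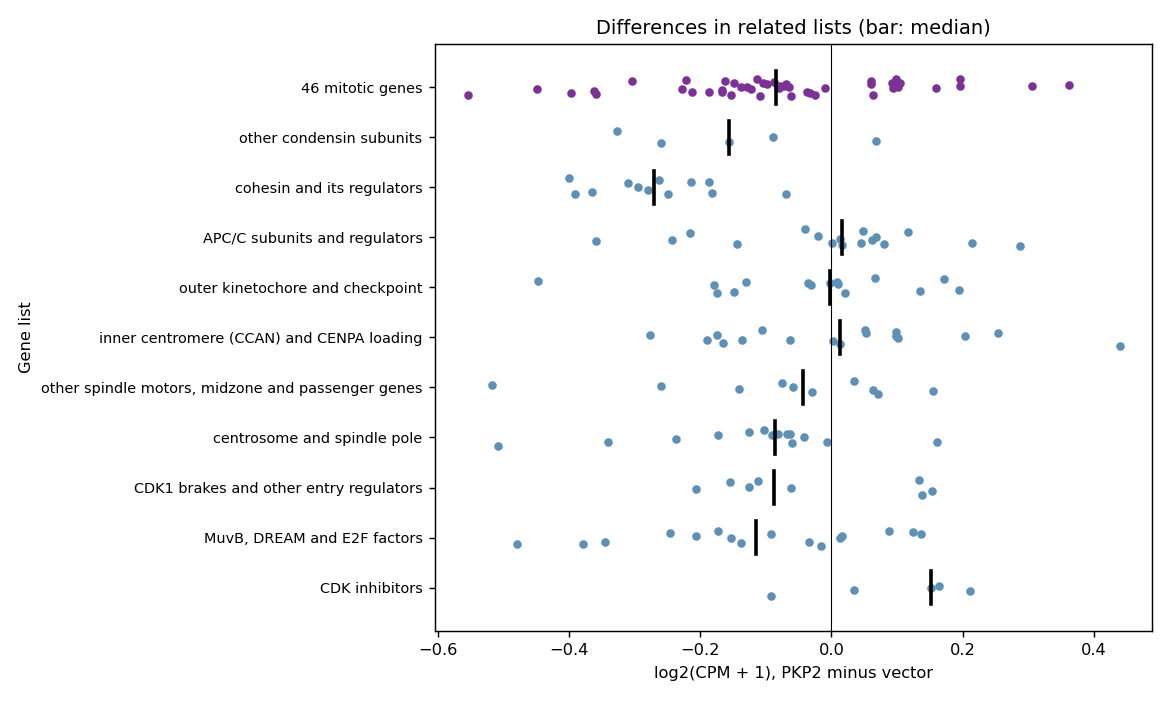
Difference in log2(CPM + 1), PKP2 minus vector, of each expressed gene in the set of 46 and in 10 further lists of mitosis and cell cycle genes; points are genes, spread vertically for sight, and bars are list medians. The cohesin list has the lowest median, -0.27, and the CDK inhibitors, with 5 expressed genes, the highest, 0.15.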

How the data were processed

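Trizol-extracted total RNA went into TruSeq (Illumina) libraries, per the labels' protocols. The authors deposited estimated counts per Entrez gene, 1 file per library, called counts in the file headers. The tools were HISAT2 2.0.4, Bowtie2 and RSEM 1.2.12 with build GRCh38.p12, per the submitters' processing notes. What each tool did, the annotation and the strandedness are not given in the labels, so values of genes with a near-identical copy or an overlapping neighbour are uncertain. A fractional count, found in 5 of the 46 genes and 18.6% of expressed genes, is marked in the text.

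Counts were divided by the library total and multiplied by 1000000 to give CPM, and differences used a pseudocount of 1 CPM. Expressed means 1 CPM or more in at least 1 library. Intervals are exact 95% Clopper-Pearson intervals of the ratio from counts rounded to whole numbers, and cover counting error only. Symbols came from RefSeq (GRCh38.p14, 16183 of 16399 IDs), gene coordinates (GRCh38), transcript length, coding length and GC content from GENCODE release 29, with length for 98.8% of expressed genes. Trends were additive lowess fits (span 0.3) with statsmodels 0.14.6 under Python 3.11.15. The calculation was tested on simulated counts.

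The 46 genes, their roles, the other lists and the alternatives were chosen with earlier results of these data known. Any of the 46 could be named, and of each other list the 2 genes that differed most, among those averaging at least 5 CPM. The alternatives were pseudocounts of 0.1 and 5 CPM, no filter, an average of at least 5 CPM, median or trimmed mean scaling, thresholds of 1.1-fold and 1.5-fold, a 99% interval, trends on length with or without GC content, and no fractional counts. The coding length trend, a trend fitted at a mean of 20 CPM or more and leaving out ECT2 were added after the data were seen, as were the pairs of genes whose intervals were compared.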

Additional observations from a re-analysis of the deposited data

How the results depend on the processing

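No paired analysis was possible because each group has 1 library. Median and trimmed mean scaling shifted all genes by -0.0015 and -0.0016 on the log2 scale and, like the pseudocounts, the missing filter and the mean of 5 CPM, moved no difference of the 46 genes beyond its interval, but either scaling left 20 intervals below 1 instead of 21, ESPL1 being the one lost. Leaving out fractional counts gave a summed ratio of 0.936 instead of 0.926. At 1.5-fold 0 genes were lower and 0 higher, against 101 and 94 of the 12820 expressed genes, and at 1.2-fold 6 and 2. At 1.1-fold 16 genes were lower and 5 higher. No share of all expressed genes is given at 1.1-fold, so these 2 counts cannot be read as a shift of the set.

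The trends, of which those on coding length and at a mean of 20 CPM were chosen after seeing the data, moved more, and the cause was not tested. With the transcript length and GC trend removed 4 genes had an interval above 1, 2 were at least 1.2-fold lower and 1 higher, and the correlation with length was -0.26. The APC/C group median was -0.040 and that of chromosome structure -0.048. CENPF lay at 0.094, CDC20 at -0.054, UBE2C at -0.025 and SMC4 at 0.012. With length alone these counts were 3, 3 and 1, the correlation -0.27, and the group medians -0.011 and -0.11, with CCNB1 at -0.024, CENPF at 0.068, CDC20 at -0.020 and UBE2C at -0.043. The fit at a mean of 20 CPM or more leaves 44 genes, without NDC80 and CDC25C, and the counts were then 3, 2 and 0. NDC80 had been 1 of the 4 above 1 and the 1 gene at least 1.2-fold higher with the transcript length and GC trend removed. The correlation was -0.15 and the medians -0.056 and -0.052. FOXM1 lay at -0.19, AURKB at -0.0059, CENPF at 0.11, CDC20 at -0.071, UBE2C at -0.048 and SMC4 at 0.011. No share of all expressed genes is given for the length alone fit or the fit at 20 CPM. Their counts therefore cannot be read as a shift of the set.

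With the coding length and GC trend removed the median of all members was 0.018 and the correlation with transcript length was -0.20. Then 9 intervals were below and 12 above 1 (19.6% and 26.1%, against 14.6% and 11.2% of expressed genes). At least 1.2-fold lower was 1 gene and 1 was higher, for which no share of all expressed genes is given. Group medians were 0.20 for centromere and kinetochore, 0.063 for kinesins, -0.049 for spindle and cytokinesis, 0.033 for the APC/C group and 0.038 for chromosome structure. BIRC5 lay at -0.047, CENPF at 0.22, KIF4A at 0.029, KIF11 at 0.048, KIF20B at 0.016, ESPL1 at 0.017, TOP2A at 0.077, SMC4 at 0.12 and NCAPG at 0.038. Without ECT2 the members' median by library total was -0.080 and 20 intervals lay below 1. Depth limits the rarest members, and NDC80 rests on 245 and 189 counts.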
